A study of Mus musculus with 6 samples.

Results

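The cytokinesis machinery was examined through 8 genes that act when a dividing cell pinches in 2: Racgap1, Ect2, Arhgap11a, Anln, Cit, Iqgap3, Cep55 and Shcbp1. Every probe set whose single annotated symbol was one of these names was taken, which gave 16 probe sets of 34945 with 1 symbol and 8 genes of 18193. The cells were V720, which the labels describe as mouse breast cancer cells of mammary epithelium, grown with fetal calf serum. They received 1 µM PD0332991 for 24 h on 3 arrays, or vehicle for 24 h on 3 arrays. PD0332991 (palbociclib) is a small molecule that blocks the kinases CDK4 and CDK6, which drive cells out of G1. No genotype, transgene or further agent is given for either group, and V720 is a single line.

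Cytokinesis begins in anaphase, when the bundled microtubules between the separating chromosomes recruit an activator of the small GTPase RhoA to the cell's equator. Active RhoA drives the assembly of a contractile ring of actin and myosin, which ingresses until only a thin bridge with the midbody at its centre is left, and a membrane-cutting complex then severs that bridge. Many of the proteins involved are made mainly in late S phase, G2 and mitosis, so that their transcripts are common in cycling cell populations.

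All 8 genes were lower after PD0332991. Their level in treated cells was 28.1% to 43.0% of that in vehicle cells, and their log2 fold changes (PD0332991 minus vehicle, on a log2(intensity + 16) scale) lay between -1.81 and -1.22 with a median of -1.62, beside a median of 0.0048 over all genes. All 8 were called lower by limma at an adjusted p under 0.05, where 11.2% of all genes were, and all 8 were at least 2-fold lower, where 1.15% of all genes were called and at least 2-fold lower. Their groups did not overlap, as was so, with PD0332991 lower, for 19.6% of all genes. The arrays measured bulk RNA, so that fewer cells in late cell cycle phases and less of a transcript per cell cannot be told apart.

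Median intensities of the 6 arrays were close, but lower on every PD0332991 array than on any vehicle array (100.1 to 101.2 and 101.5 to 103.6). Centring the arrays on their medians gave 2188 genes called higher and 1750 lower, in place of 1785 and 2035. The series text describes biological triplicates, and no label says more about how cultures were separated. The p-values set the difference between groups against the spread between these samples, moderated across genes. How far that spread covers separate cultures is not known. Of 8 mammary epithelial markers, Epcam, Cdh1, Krt7, Krt8 and Krt18 were bright in both groups (means of 8219 to 12866 with PD0332991 and 7642 to 12265 with vehicle), whereas Krt5, Krt14 and Krt19 were at or below 45.5 with PD0332991 and 42.3 with vehicle. Krt7 was called higher (log2 fold change 0.20), 1 of 8 beside 9.81% of all genes. The summed intensity of the 8 was 49525 to 50926 with PD0332991 and 46869 to 48187 with vehicle, without overlap. Of 5 leukocyte markers 2 were called higher, beside 9.81% of all genes. They were Cd68 (means of 307.7 with PD0332991 and 230.1 with vehicle) and Ptprc, which was dim (18.2 and 11.6). Cd3e, Itgam and Csf1r were not called. The summed intensity of the 5, most of it from Cd68, was 438 to 462 with PD0332991 and 348 to 399 with vehicle. Of 6 fibroblast markers 1 was called lower, beside 11.2% of all genes. It was Pdgfra (means of 117.0 with PD0332991 and 174.5 with vehicle). The sums of the 6 were 292 to 317 with PD0332991 and 326 to 377 with vehicle. None of 4 endothelial or 2 adipocyte markers was called, and the part of any of these in the falls described here was not tested.

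The sequences around the transcript starts of the 8 genes are shown because the genes fell together, and 7 of them (all but Shcbp1) matched the RefSeq promoter table of build GRCm38.p6. Each window held 250 bases before and 50 bases after the start. The cell cycle genes homology region, or CHR, is the letters TTTGAA or TTCGAA, to which the MuvB core of the DREAM complex binds. It was found on either strand in 6 of the 7 genes, beside 21.7% of 27025 genes in the table. Stretches of 30 bases around the match nearest to the start are given below, 5′ to 3′ on the gene's strand, with the CHR letters in capitals (TTCAAA is TTTGAA read on the opposite strand).
Racgap1: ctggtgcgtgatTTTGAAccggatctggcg
Ect2: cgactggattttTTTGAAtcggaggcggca
Arhgap11a: aagggtcctcatTTTGAAaacaggagcggg
Anln: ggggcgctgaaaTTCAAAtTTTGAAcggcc
Iqgap3: agcggcgggagaTTCAAAactggcaggaga
Cep55: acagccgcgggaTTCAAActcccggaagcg
These lie at chr15:99651634-99651663 (Racgap1, minus strand), chr3:27153822-27153851 (Ect2, minus strand), chr2:113848743-113848772 (Arhgap11a, minus strand), chr9:22389168-22389197 (Anln, minus strand), chr3:88082020-88082049 (Iqgap3, plus strand) and chr19:38054996-38055025 (Cep55, plus strand). In Anln the motif was present on both strands, 1 base apart. The window of Cit held no match to CHR letters.

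Measured from the transcript start, the first base of the match was at 6 in Racgap1, at -19 in Iqgap3, at 22 and 29 in Anln and at -99 in Arhgap11a. Ect2 and Cep55 each have more than 1 start in the table, and their matches fell at 16 or 40 (with a further match at -138 or -114) and at 25 or -33. Between 60 bases before and 50 after the start, a stretch chosen after these positions were seen, 5 of the 7 genes had a match, beside 6.79% of all genes. The letters CCAAT, the box bound by NF-Y, occurred on either strand in Racgap1, Ect2 and Arhgap11a, 3 of 7 genes beside 41.1% of all. E2F core letters (TTCGCGC or TTGGCGC or TTCCCGC or TTGCCGC) occurred in Ect2 and Arhgap11a, 2 of 7 beside 10.9% of all. The 250 bases before the more upstream Ect2 start (chr3:27153879-27154128, minus strand) show 1 CHR match followed by 2 CCAAT boxes, in capitals.
Ect2 upstream: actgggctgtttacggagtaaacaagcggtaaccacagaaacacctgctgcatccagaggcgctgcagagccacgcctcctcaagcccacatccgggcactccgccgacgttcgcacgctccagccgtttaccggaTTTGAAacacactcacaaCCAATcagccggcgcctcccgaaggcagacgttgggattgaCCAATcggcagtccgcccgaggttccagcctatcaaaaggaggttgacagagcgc
The third CCAAT box of Ect2 overlaps its E2F match at the start itself. In the 250 bases before the start of Arhgap11a (chr2:113848662-113848911, minus strand) 1 match each of CHR, CCAAT and E2F letters, in capitals, follow one another.
Arhgap11a upstream: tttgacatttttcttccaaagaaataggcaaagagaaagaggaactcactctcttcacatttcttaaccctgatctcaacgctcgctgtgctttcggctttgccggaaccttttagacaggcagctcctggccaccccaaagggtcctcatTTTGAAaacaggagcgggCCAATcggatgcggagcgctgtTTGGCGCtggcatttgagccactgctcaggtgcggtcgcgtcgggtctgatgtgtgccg
These matches are descriptions of letters, and binding at them was not measured.

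**Figure D1:**
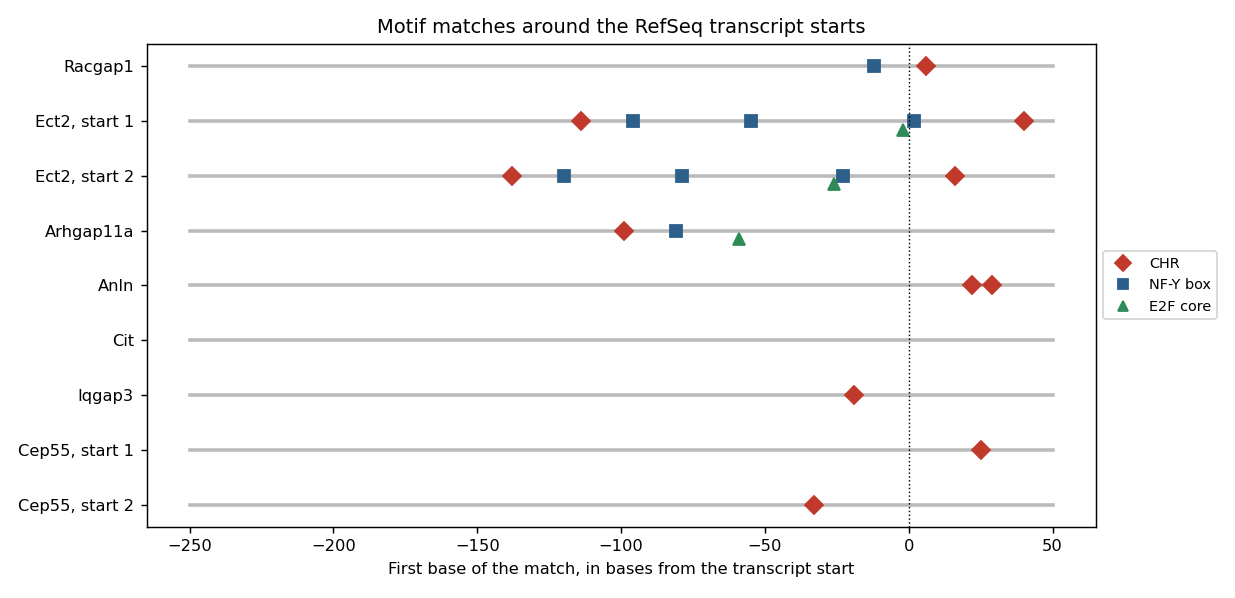
Motif matches from 250 bases before to 50 bases after each RefSeq transcript start of the 7 genes in the table, with the distance of a match's first base from the start on the x axis and 1 line per start. CHR matches (diamonds) are present in 6 genes, NF-Y boxes (squares) in 3 and E2F cores (triangles) in 2, and Cit has none.

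The regulators of RhoA came first in the pathway. Racgap1 encodes a GTPase-activating protein that, with the kinesin Kif23, forms centralspindlin, the complex that bundles midzone microtubules and docks the RhoA activator. On its brightest probe set (1421546_a_at, chromosome 15) it had intensities of 383.7, 478.1 and 538.2 on the PD0332991 arrays, against 1630, 1714 and 1634 on the vehicle arrays. The treated arrays were spread more widely than the vehicle arrays but stayed far below all of them. It was 3.50-fold lower (log2 fold change -1.81, SE 0.12, limma adjusted p = 0.000414), the largest fall of the 8 on brightest probe sets, and 27 of the 18193 genes fell more.

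Ect2 encodes the guanine nucleotide exchange factor that switches RhoA on at the equator and is held there by Racgap1. Its only probe set (1419513_a_at, chromosome 3) read 1130, 1167 and 1217 with PD0332991, against 2804, 2809 and 2735 with vehicle. Both groups were tight, and Ect2 was 2.36-fold lower (log2 fold change -1.24, SE 0.04, limma adjusted p = 4.50e-05). The falls of Ect2 and of Racgap1 had separate 95% intervals (-1.34 to -1.14 and -2.11 to -1.51).

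Arhgap11a encodes a GTPase-activating protein that turns RhoA off and so limits the zone in which it is active. Its only probe set (1438434_at, chromosome 2) read 673.4, 723.7 and 762.3 with PD0332991, against 1912, 1925 and 1896 with vehicle. It was 2.62-fold lower (log2 fold change -1.39, SE 0.05, limma adjusted p = 5.52e-05), so that the activator of RhoA and 2 GTPase-activating proteins fell together.

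Ring scaffolds and effectors followed. Anln encodes anillin, which ties RhoA, actin, myosin and septins to the membrane at the furrow. Its probe set 1433543_at (chromosome 9) read 1981, 2057 and 2282 with PD0332991, against 5000, 4816 and 4895 with vehicle. This was 2.32-fold lower (log2 fold change -1.22, SE 0.06, limma adjusted p = 0.000127), the smallest fall of the 8 on brightest probe sets, and 147 genes fell more. Another probe set of Anln (1439648_at), with 137.0, 168.5 and 175.7 on the PD0332991 arrays, against 400.9, 390.4 and 372.3 on the vehicle arrays, had a log2 fold change of -1.20.

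Cit encodes citron kinase, which organises the late contractile ring and the midbody. Probe set 1455609_at (chromosome 5) read 228.1, 224.4 and 218.5 with PD0332991, against 645.6, 750.9 and 647.1 with vehicle. Here the vehicle arrays were the more variable group, through a high value on replicate 2, and Cit was 2.90-fold lower (log2 fold change -1.54, SE 0.07, limma adjusted p = 8.53e-05).

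Iqgap3 encodes a scaffold of the IQGAP family that binds actin, calmodulin and the GTPases Rac1 and Cdc42, and it is the family member tied to proliferating cells. Probe set 1434850_at (chromosome 3) read 163.7, 207.9 and 187.7 with PD0332991, against 622.8, 679.0 and 627.7 with vehicle. It was 3.27-fold lower (log2 fold change -1.71, SE 0.09, limma adjusted p = 0.000144). Of its relatives, Iqgap2 averaged 972.9 ± 13.6 with PD0332991 and 1244 ± 41.9 with vehicle (SD, n = 3 each, log2 fold change -0.35), and Iqgap1 had a log2 fold change of 0.10 that was not called. The difference between the 3 relatives was not tested.

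Midbody factors act last. Cep55 encodes the midbody protein that recruits the membrane-cutting ESCRT machinery through its partners Pdcd6ip and Tsg101. Its brightest probe set (1452242_at, chromosome 19) read 764.5, 847.4 and 872.6 with PD0332991, against 2773, 2734 and 2662 with vehicle. Cep55 was 3.25-fold lower (log2 fold change -1.70, SE 0.06, limma adjusted p = 4.59e-05). Shcbp1 encodes a midbody protein that binds centralspindlin and the adaptor Shc. Its only probe set (1416299_at, chromosome 8) read 638.4, 736.1 and 725.0 with PD0332991, against 2386, 2432 and 2389 with vehicle, and thus 3.38-fold less (log2 fold change -1.76, SE 0.06, limma adjusted p = 4.59e-05). On both genes every treated array was below every vehicle array.

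**Figure D2:**
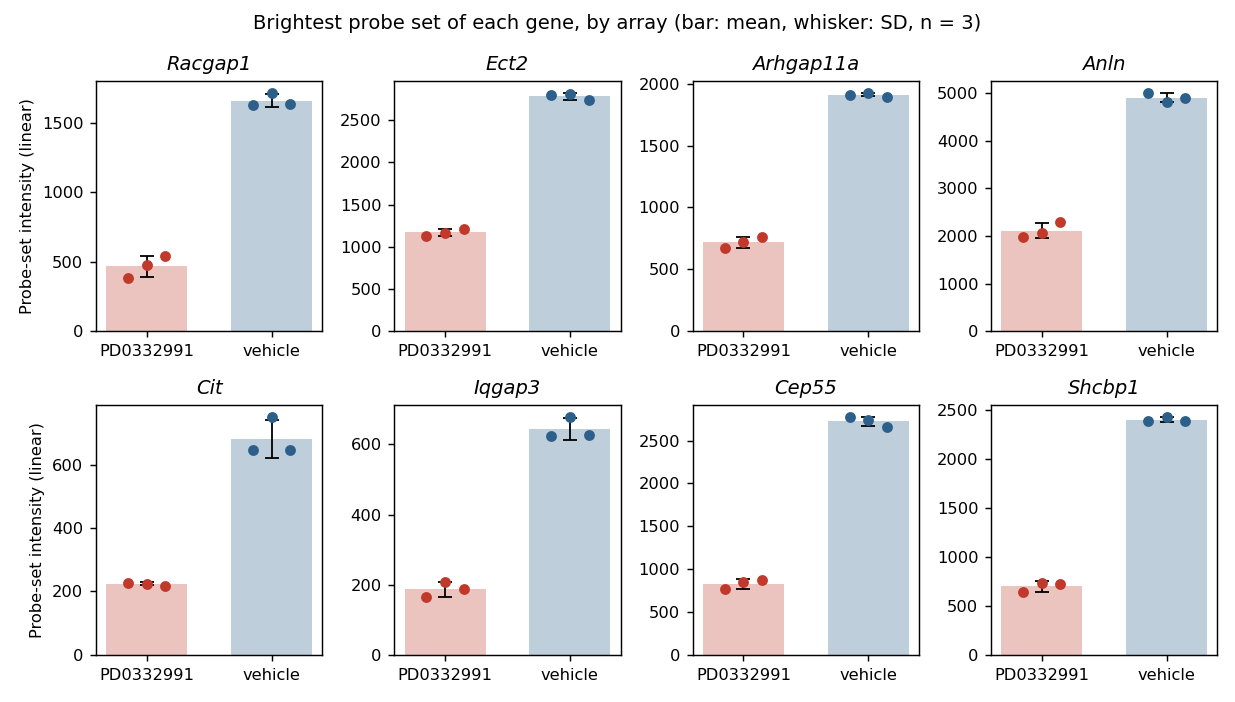
Linear probe-set intensity of the brightest probe set of each gene on the 3 PD0332991 arrays (red) and the 3 vehicle arrays (blue), with bars at the mean and whiskers of 1 SD, n = 3. In all 8 genes the treated arrays lie below the vehicle arrays without overlap, with treated means at 28.1% (Racgap1) to 43.0% (Anln) of the vehicle means.

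Several of these genes have more than 1 probe set, and they did not all give the same change. In a fit of all 34945 probe sets, 12 of the 16 were called lower, where 9.7% of all probe sets were. None was called higher, where 7.87% of all were. The groups did not overlap, with PD0332991 lower, in 14 of the 16, where this held for 19.1% of all. Racgap1 fell on 2 probe sets, the other (1451358_a_at) with 225.1, 256.5 and 269.2 on PD0332991 arrays, against 953.5, 942.0 and 965.3 on vehicle arrays and a log2 fold change of -1.87 (SE 0.07). A further one, 1441889_x_at, was listed at exactly 1.00 on 5 of 6 arrays and at 3.72 on PD0332991 replicate 2, so that it gave no measure of the gene. Between 783 and 825 probe sets were listed at 1.00 on each array.

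Cep55 also fell on its dimmer probe set (1453683_a_at), which averaged 17.9 ± 3.67 with PD0332991 and 68.3 ± 1.10 with vehicle (SD, n = 3 each, log2 fold change -1.32). At such intensities the added 16 understates a change. Of the 4 probe sets of Cit, 2 were called lower. Probe set 1427669_a_at averaged 17.8 ± 5.81 with PD0332991 and 51.8 ± 10.3 with vehicle (SD, n = 3 each, log2 fold change -1.01, SE 0.17, limma adjusted p = 0.0135), a call that was lost without vehicle replicate 2 (adjusted p = 0.0510) or vehicle replicate 3 (adjusted p = 0.0512). Probe set 1458276_x_at, whose suffix marks probes that may cross-hybridise, averaged 160.7 ± 1.71 with PD0332991 and 183.0 ± 11.0 with vehicle (SD, n = 3 each, log2 fold change -0.17, limma adjusted p = 0.0788), and it was called lower without vehicle replicate 3 (log2 fold change -0.22, adjusted p = 0.0425) or when dim probe sets were left out of the fit (log2 fold change -0.17, adjusted p = 0.0270). The fourth, 1426028_a_at, had a log2 fold change of -0.27 with a 95% interval of -0.68 to 0.13, and its groups overlapped.

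The dimmer probe set of Iqgap3 (1459405_at) read 60.1, 62.4 and 58.4 with PD0332991, against 92.0, 69.5 and 66.7 with vehicle (log2 fold change -0.26, limma adjusted p = 0.166). When the log2 values of all probe sets of a gene were averaged, the 8 genes were still called lower. The log2 fold change was then -0.75 for Cit, -0.98 for Iqgap3 and -1.20 for Racgap1. The Racgap1 average takes in 1441889_x_at, which gave no measure of the gene. Which transcripts each probe set reaches was not tested.

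**Figure D3:**
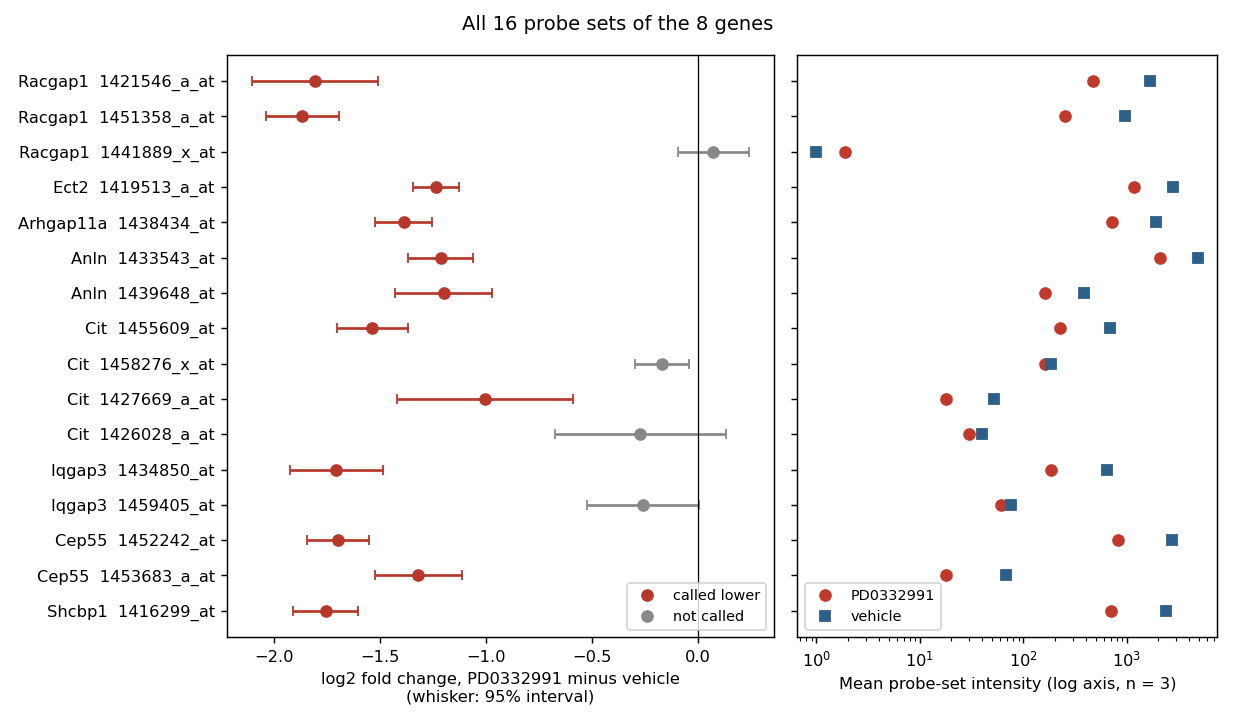
Left, log2 fold change (PD0332991 minus vehicle) of each of the 16 probe sets with its 95% interval, red where called lower and grey where not called. Right, mean intensity of the same probe sets on a log axis (n = 3), PD0332991 as circles and vehicle as squares. The 4 probe sets that were not called belong to Racgap1, Cit and Iqgap3, genes that each have another probe set that was called.

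The falls were not all of one size. Of the 28 pairs of genes, 12 had 95% intervals of the log2 fold change that were separate, and the other 16 overlapped. On brightest probe sets the order began with Racgap1, Shcbp1, Iqgap3 and Cep55, at -1.81 to -1.70, followed by Cit at -1.54, Arhgap11a at -1.39, Ect2 at -1.24 and Anln at -1.22. Neighbours in this order had overlapping intervals in each case. With all probe sets of a gene averaged, Iqgap3 (-0.98) and Cit (-0.75) instead had the smallest falls of the 8. Racgap1 was then at -1.20, but its average takes in 1441889_x_at, which gave no measure of the gene. Its probe sets 1421546_a_at and 1451358_a_at had -1.81 and -1.87. No test of the differences between genes was run, and the size of a change also depends on how each probe set responds to its transcript.

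Among the treated arrays, replicate 1 read lowest for 7 of the 8 genes, all but Cit. On that array the 8 genes lay on average 0.11 below the mean of the 3 treated arrays on the log2 scale, against 0.04 and 0.07 above it on replicates 2 and 3. On replicate 1 the 11 genes of the central spindle list also averaged -0.17, and the median deviation over all genes was -0.0056. The average of the list takes in Kif14, which was too dim to judge and may weigh on it. Racgap1 was spread most, from 383.7 to 538.2, and had the largest SE of the 8. The coefficient of variation was 2.17% to 16.7% with PD0332991 and 0.740% to 8.86% with vehicle over the 8 genes. Without PD0332991 replicate 1 all 8 were called lower, with log2 fold changes of -1.70 (Shcbp1) to -1.17 (Anln).

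**Figure D4:**
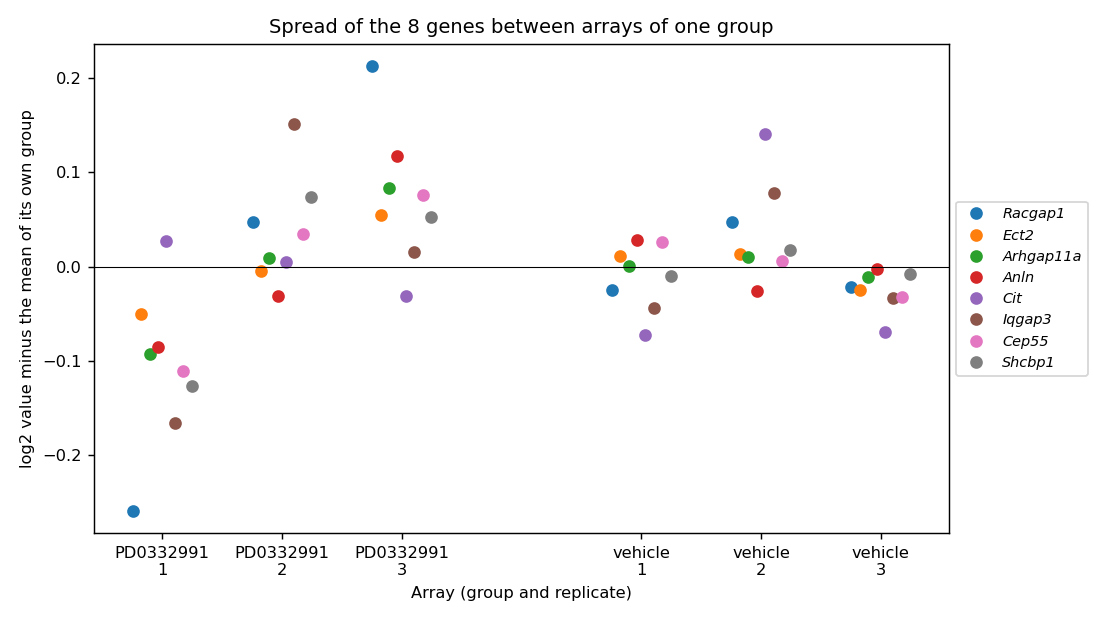
Deviation of each gene's log2(intensity + 16) value from the mean of its own group, for the 3 PD0332991 arrays on the left and the 3 vehicle arrays on the right, each colour a gene. On PD0332991 replicate 1 the 8 genes average 0.11 below their group mean, and Cit is the one above it.

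Other genes of cytokinesis were set beside these in 6 lists of 82 genes, of which 81 were measured. The central spindle and the chromosomal passenger complex, which position and license the furrow, moved like the 8 genes. Of their 11 genes 10 were called lower and at least 2-fold lower, where 1.15% of all genes were. The list's median was -1.71 on the log2 scale. Kif23, the partner of Racgap1 in centralspindlin, averaged 735.4 ± 79.0 with PD0332991 and 1969 ± 41.0 with vehicle (SD, n = 3 each), which is 2.65-fold lower on the log2(intensity + 16) scale. Kif20a, a kinesin of the midzone, was 3.95-fold lower, Plk1, the kinase that creates the docking site for Ect2, 3.62-fold, Aurkb, the kinase of the passenger complex, 3.45-fold and Kif20b, a kinesin of the midbody, 2.85-fold. The eleventh, Kif14, which binds citron kinase, was too dim to judge, with 13.7 ± 11.0 with PD0332991 and 16.9 ± 5.17 with vehicle (SD, n = 3 each). Kif23 and Kif14 were named after their values were seen.

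The other 5 lists held 70 measured genes, of which 13 were called lower and 12 higher, beside 11.2% and 9.81% of all genes. One of the 70 was at least 2-fold lower. That gene was Diaph3, a formin that nucleates actin filaments downstream of RhoA, with 305.0, 356.9 and 357.5 on PD0332991 arrays, against 823.7, 822.4 and 871.6 on vehicle arrays (log2 fold change -1.27, SE 0.07, limma adjusted p = 0.000196). Its relative Diaph2 was 1.25-fold higher. RhoA itself averaged 5202 ± 164 with PD0332991 and 5354 ± 28.1 with vehicle (SD, n = 3 each, log2 fold change -0.04, not called), and Rhoa, like Iqgap1, was named after its value was seen.

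In the contractile ring list 4 of 15 genes were called lower and 2 higher, beside 11.2% and 9.81% of all genes. The list's median was 0.04 on the log2 scale. Besides the formins, Rdx and Msn, relatives that link actin to the membrane, were 1.18-fold lower and 1.17-fold higher. The count called lower was 2 without PD0332991 replicate 1 or 2 or without vehicle replicate 1 or 2. Of 7 septins, which form filaments at the furrow, 3 were called lower and none higher, beside the same shares of all genes. Septin10 averaged 996.2 ± 41.0 with PD0332991 and 1499 ± 12.1 with vehicle (SD, n = 3 each, log2 fold change -0.58), Septin11 was 1.23-fold lower and Septin8 1.15-fold lower. With the mean of probe sets, Septin8 turned to a log2 fold change of 0.15 and Septin11 was -0.06, neither called.

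The ESCRT machinery and the abscission checkpoint act in severing the bridge downstream of Cep55. Of their 17 genes, 3 were called higher and 1 lower, beside 9.81% and 11.2% of all genes. The log2 fold changes of the 17 all lay between -0.15 and 0.23. Chmp1b was 1.17-fold higher, Chmp2b 1.10-fold higher and Chmp4b 1.11-fold higher, all subunits of the filament that cuts the membrane, while Spast, which severs microtubules in the bridge, was 1.11-fold lower. Leaving out any 1 of the 6 arrays gave 1 higher and 0 lower. Pdcd6ip and Tsg101, the partners that Cep55 binds, had log2 fold changes of 0.0095 and 0.04 and were not called. They were named after their values were seen.

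Of 15 genes listed under membrane traffic at the midbody, 2 were called higher and 3 lower, beside 9.81% and 11.2% of all genes. The list also took in centrosomal genes, and 2 of the 3 lower calls, Cntrob and Kiz, were among these. Cntrob, a centriole protein required for cytokinesis, averaged 208.2 ± 3.80 with PD0332991 and 373.7 ± 9.34 with vehicle (SD, n = 3 each, 1.74-fold lower), and Kiz, a centrosomal protein, was 1.15-fold lower. Rab11a, a GTPase of recycling vesicles, was 1.23-fold higher, and Ocrl, a phosphoinositide phosphatase, 1.14-fold higher, though with the mean of its probe sets Ocrl had a log2 fold change of -0.0034. The count of genes called higher was 1 without PD0332991 replicate 1 or 3 or without any 1 of the 3 vehicle arrays. The count called lower was 1 without PD0332991 replicate 1 or 2 or without any 1 vehicle array.

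Among 16 other regulators and relatives of RhoA, Rac1 and Cdc42, 5 were called higher and 2 lower, beside 9.81% and 11.2% of all genes. Rhob, a relative of RhoA on endosomes, read 885.9, 940.8 and 933.1 with PD0332991, against 591.2, 594.7 and 589.4 with vehicle, and was thus 1.54-fold higher (log2 fold change 0.62, SE 0.04, limma adjusted p = 0.000276). Rnd3, which antagonises RhoA signalling, was 1.36-fold higher, Mcf2l, an exchange factor for small GTPases, 1.66-fold lower and Iqgap2 1.27-fold lower. The higher calls numbered 3 without PD0332991 replicate 1 or 2 or without vehicle replicate 1 or 3.

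When arrays were centred on 9 hybridization spike-ins, which lowers every log2 fold change by 0.13 and moves the median of all genes to -0.12, Rhob was the only gene of the 5 lists still called higher. The medians of these 5 lists were then between -0.10 and -0.07. The spike-in mean of vehicle replicate 1 was 9.74 on the log2 scale, where the other 5 arrays had 9.94 to 10.1. Without that array the median of all genes after spike-in centring was -0.04, the list medians lay between -0.03 (septins and contractile ring) and 0.0093 (midbody traffic), and Rhob was again the only one called higher.

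**Figure D5:**
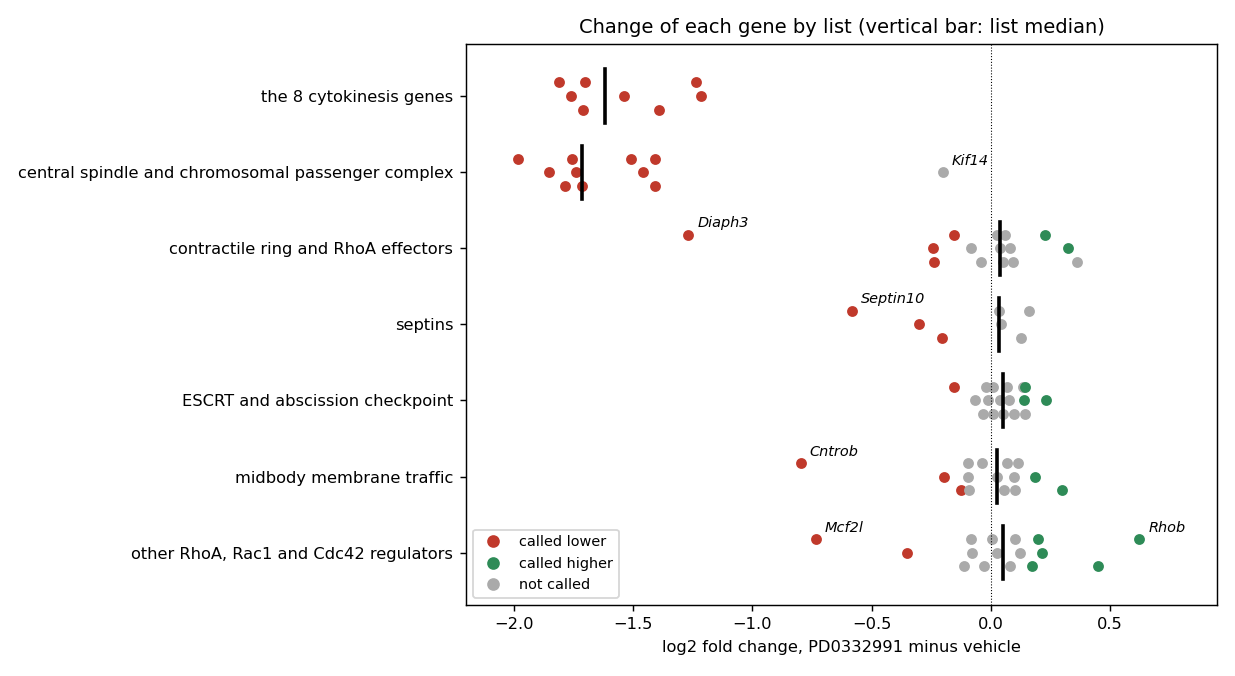
Log2 fold change (PD0332991 minus vehicle) of each gene in the group of 8 and in the 6 lists of other cytokinesis genes, red where called lower, green where called higher and grey where not called, with a vertical bar at each list's median. The 8 genes and 10 of the 11 central spindle genes lie below -1, as does Diaph3 alone among the other 70.

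The genes whose profile over the 6 arrays was most like the mean of the 8 were found by the root mean square difference of centred log2 values, among genes brighter than the median. They were Mastl, a kinase that keeps mitotic phosphorylations in place (difference 0.023), Ccna2, cyclin A2 (0.027), Kif20b (0.033), Tpx2, which nucleates spindle microtubules (0.033), and Spc25, a kinetochore subunit (0.035). Of the 8 genes themselves, Arhgap11a was nearest to their mean profile (0.079) and Anln farthest (0.171). The 8 were not picked by closeness, whereas Mastl to Spc25 were the closest of all genes searched. Their differences therefore cannot be compared with those of the 8. Mastl averaged 218.7 ± 13.5 with PD0332991 and 657.0 ± 9.87 with vehicle (SD, n = 3 each), and Ccna2 1323 ± 83.1 with PD0332991 and 3975 ± 148 with vehicle. The measure rests on 6 arrays in 2 groups.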

How the data were processed

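The authors' deposited table holds 1 linear probe-set intensity per array, 3 arrays per group; per the labels' protocols total RNA was biotin-labelled by the standard Affymetrix procedure. Summarisation and scaling are not given in the sources used here, and scanner files were not used here. The number of arrays limits the precision. Any scaling between arrays would hide a global change in RNA content. Tests excluded 64 control probe sets. The platform annotation gave 1 symbol to 34945 probe sets, several to 932 and none to 9160, and of 18193 genes 18032 matched RefSeq (GRCm38.p6) by gene number. A gene was its probe set with the highest mean log2(intensity + 16) over the 6 arrays. Groups were compared with lmFit and eBayes of limma 3.58.1 (R 4.3.3) by a two-sided test, p-values being adjusted by Benjamini-Hochberg across all genes or across all probe sets, with a threshold of 0.05, no block and no filter. The procedure was tested on simulated data, with independent noise for each gene and with lowered genes only. Shifts shared by many genes on an array were not simulated, so that test does not cover them. Tables and plots used Python 3.11.15, pandas 2.3.3 and matplotlib 3.10.9. Promoter windows and motifs were read from RefSeq sequence, and a motif was searched on both strands.

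Members, lists and alternatives were chosen with earlier results of these data known. Named were all members and their probe sets, in each other list the 4 called genes with the smallest p (or 2 by p if none was called), and the 5 genes, passing over predicted ones, most like the members' mean profile. Same-numbered arrays of the 2 groups had correlations of their deviations of 0.0076, -0.051 and 0.050 over all genes. These values gave no sign that the numbers pair the samples. They cannot exclude a pairing, because noise in dim genes could hide it. Alternatives tried were quantile normalization, a replicate block, centring on the median or on 9 spike-in probe sets, pseudocounts of 1 and 64, leaving out probe sets below the 40th percentile, eBayes with trend and robust settings, averaging the probe sets of a gene, and each array left out. Spike-in centring without vehicle replicate 1 was chosen after seeing the data.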

Additional observations from a re-analysis of the deposited data

How the results depend on the processing

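All 8 genes were called lower under every one of the 16 alternatives, with log2 fold changes of -1.94 to -0.75 and a highest adjusted p of 0.00731, under the replicate block. Of the 16 probe sets, 11 or 12 were called lower, except that the dim filter kept 12, of which 11 were called. The 1441889_x_at probe set of Racgap1, listed at 1.00 on most arrays, had -0.056 after spike-in centring, Septin8 0.15 and Ocrl -0.0034 with the mean of probe sets, where further probe sets enter.

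Over all genes, 1785 were called higher and 2035 lower. The replicate block gave 895 and 1152, spike-in centring 240 higher, the same without vehicle replicate 1 412 and 1159, and leaving out 1 array 1096 to 1252 higher and 1326 to 1494 lower. In the contractile ring list the block gave 1 higher and 2 lower, spike-in centring, with or without vehicle replicate 1, 0 and 1, and leaving out 1 array 2 higher and 2 to 3 lower. Septins called higher were 2 with quantile normalization or the dim filter and 1 with median centring, a pseudocount of 64, trend and robust settings or the mean of probe sets, which also gave 1 lower. Of the ESCRT list 1 was higher with the block or a pseudocount of 1, 0 with spike-in centring (either way) and 1 without any 1 array. Its 1 lower call became 0 with the block, quantile normalization, median centring, spike-in centring (either way), a pseudocount of 1 or any 1 array left out. In the midbody traffic list, genes called higher were 1 with the block or the mean of probe sets and 0 with spike-in centring (either way). They were 4 with the dim filter or trend and robust settings and 1 to 2 without 1 array. Those called lower were 1 with the block or spike-in centring (either way) and 1 to 2 without 1 array. The other regulators of RhoA, Rac1 and Cdc42 called higher were 2 with the block, 1 with spike-in centring (either way) and 3 to 5 without 1 array, and 4 were lower with trend and robust settings. The cause of these moves was not tested. Whether calls lost under the replicate block are weaker effects was not tested. Dim probe sets, near the added 16, limit what can be said of Kif14 and Ptprc. The same holds for Cit probe sets 1427669_a_at and 1426028_a_at and Cep55 probe set 1453683_a_at.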
